A study of Mus musculus with 23 samples.

Results

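The genes of 4 steroid hormone receptors and of the enzyme system that activates and inactivates glucocorticoids inside the cell were examined in primary mouse embryonic fibroblasts (MEFs). These were Nr3c1, Nr3c2, Pgr, Esr1, Hsd11b1, Hsd11b2 and H6pd, 7 of the 55487 genes in the count table, and they were chosen by name. The MEFs were FVB/NJ cells from E13.5 embryos and carried the unmodified glucocorticoid receptor (GRwt/wt), an alanine-to-threonine exchange at the DNA-binding domain dimer interface (GRD/D), an isoleucine-to-alanine exchange in the domain that binds ligand (GRL/L), or both exchanges on each allele (GRD+L/D+L). The L change was made by genome editing of zygotes that carried the D allele, the GRD+L line went back to a single founder pup, and both lines were backcrossed to FVB/NJ. Cells of every genotype were kept in medium with 10% fetal serum and received solvent (vehicle) or 10 nM dexamethasone (Dex), a synthetic GR ligand, for 5 h before RNA-seq. There were 23 libraries in 8 groups, 3 per group apart from GRD/D vehicle with 2.

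Nr3c1 encodes the glucocorticoid receptor (GR), a transcription factor that moves into the nucleus and binds DNA once it has bound hormone. Its closest relatives are the mineralocorticoid receptor (MR, Nr3c2), which binds corticosterone and aldosterone, and the progesterone receptor (Pgr), while the oestrogen receptor alpha (Esr1) is a more distant member of the family. How much natural glucocorticoid reaches these receptors depends on enzymes in the endoplasmic reticulum. The enzyme encoded by Hsd11b1 regenerates active corticosterone from its inert 11-keto form with NADPH that hexose-6-phosphate dehydrogenase (H6pd) supplies in the lumen, and the Hsd11b2 enzyme runs the opposite, inactivating reaction, for which it is known in kidney and other aldosterone target tissues.

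Libraries held 16.5 M to 23.1 M counts, and all 7 genes passed the expression filter that left 15748 genes. Fibroblast markers summed to 32830 to 57360 CPM (counts relative to library size with TMM factors), whereas 5 epithelial markers together never exceeded 2.37 CPM. In bulk RNA, fewer cells of a type and less RNA per cell cannot be told apart. GRwt/wt vehicle replicate 1 stood apart, with a highest Spearman correlation of 0.916 to any other library against at least 0.973 elsewhere, and in GRwt/wt vehicle replicate 3 macrophage markers summed to 4548 CPM against a median of 250.9 CPM. By the Y-linked gene Ddx3y, 16 libraries were male and 7 female. The female ones were replicate 1 of both GRwt/wt groups and both GRD/D groups, GRD/D Dex replicate 2, and replicate 2 of both GRL/L groups, so all GRD+L/D+L libraries were male. Libraries also differed in composition with genotype. The correlation over genes between a library's deviation from the median and transcript length was negative in all 11 GRwt/wt and GRD/D libraries (rho -0.534 to -0.199) and positive in all 12 libraries of GRL/L or GRD+L/D+L (rho 0.188 to 0.426).

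Per kilobase of exon, Nr3c1 and H6pd were the abundant genes, and the other 5 were low. The median over the 23 libraries was 25.9 CPM per kb for H6pd and 15.4 CPM per kb for Nr3c1. It was 0.48 CPM per kb for Hsd11b2, 0.378 for Nr3c2, 0.329 for Pgr, 0.192 for Esr1 and 0.159 for Hsd11b1. The last 5 genes overlapped in range, so their order was not the same in every library. It also depends on the length used. Exonic length joins all annotated transcripts, with 4251 bases for Hsd11b1 and 13661 for Esr1, whose longest transcripts have 1978 and 6339. Hsd11b1 rested on 4 to 63 counts per library, Hsd11b2 on 7 to 205, Nr3c2 on 10 to 155, Pgr on 6 to 507 and Esr1 on 20 to 193. On a log scale, H6pd had the narrowest range of the 7 genes, from 102 to 196 CPM, and Pgr the widest, from 0.345 to 28.1 CPM.

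**Figure D1:**
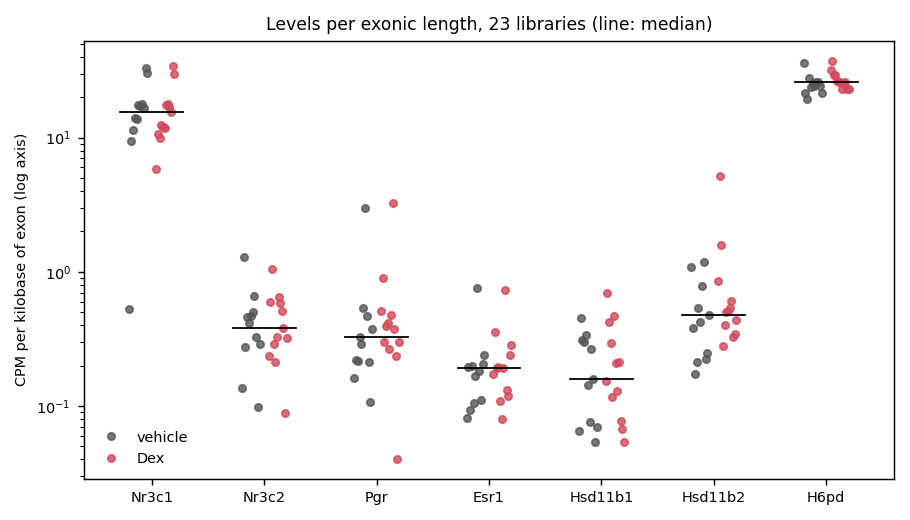
Level of each of the 7 genes per exonic length (CPM per kilobase, log axis) in the 23 libraries, with grey points for vehicle, red points for Dex and a line at the median. The medians of H6pd (25.9 CPM per kb) and Nr3c1 (15.4 CPM per kb) lie well above those of the other genes, and 1 GRwt/wt vehicle library has Nr3c1 at 0.531 CPM per kb, within their range.

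Promoter sequence is shown for both genes of the activating pair (Hsd11b1 and H6pd), for Pgr, whose level differed most between libraries, and for Nr3c2, the MR gene. RefSeq (GRCm38.p6) gave 6 windows of 250 bases before a start site for 5 of the 7 genes, with none for Nr3c1 and Hsd11b2 in the table used here. Each was searched on both strands for the palindromic GR element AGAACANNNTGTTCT and its single arm TGTTCT, and for the oestrogen receptor element GGTCANNNTGACC and its single arm GGTCA. A full element contains its arm on each strand. Capitals mark a match, and each sequence reads in the direction of the gene.
Nr3c2 (chr8:76902080-76902329, plus strand): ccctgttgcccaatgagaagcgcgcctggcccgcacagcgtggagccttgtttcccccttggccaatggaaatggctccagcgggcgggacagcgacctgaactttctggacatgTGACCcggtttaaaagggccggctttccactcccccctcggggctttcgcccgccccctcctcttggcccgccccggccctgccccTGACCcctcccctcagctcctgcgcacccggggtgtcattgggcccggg
Pgr (chr9:8899583-8899832, plus strand): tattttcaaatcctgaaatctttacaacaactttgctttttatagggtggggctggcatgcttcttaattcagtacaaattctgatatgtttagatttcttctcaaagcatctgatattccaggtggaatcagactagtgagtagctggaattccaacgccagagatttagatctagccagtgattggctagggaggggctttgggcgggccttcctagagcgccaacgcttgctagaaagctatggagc
Hsd11b1 (chr1:193242361-193242610, minus strand): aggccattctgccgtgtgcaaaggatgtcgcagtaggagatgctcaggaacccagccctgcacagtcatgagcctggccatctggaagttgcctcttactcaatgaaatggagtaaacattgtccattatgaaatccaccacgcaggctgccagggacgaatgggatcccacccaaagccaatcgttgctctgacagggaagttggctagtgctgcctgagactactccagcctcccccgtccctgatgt
H6pd (chr4:150003237-150003486, minus strand): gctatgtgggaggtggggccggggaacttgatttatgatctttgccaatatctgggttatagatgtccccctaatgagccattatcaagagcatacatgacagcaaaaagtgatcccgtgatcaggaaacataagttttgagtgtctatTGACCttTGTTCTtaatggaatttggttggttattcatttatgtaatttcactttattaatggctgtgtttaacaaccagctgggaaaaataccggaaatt
None of the 6 windows held either full element, which 0.00913% (GR) and 0.0639% (oestrogen receptor) of 32851 RefSeq windows of that length held. H6pd had 1 GR arm, found in 16.1% of all windows, next to 1 oestrogen receptor arm, found in 35.2%. Nr3c2 had 2 oestrogen receptor arms, and the windows of Pgr, Hsd11b1 and both Esr1 starts had no match. Of the 6 windows, only that of Pgr lay just before the gene span given below. The others lay inside the span of their gene, so its outermost start was not searched. These letters say nothing of binding or of elements elsewhere.

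Dex for 5 h called none of the 7 genes in any genotype, and 4 gene-level differences between genotypes were called. A call needed an adjusted p of at most 0.05 in edgeR's quasi-likelihood test, with Benjamini-Hochberg adjustment over all 15748 genes, and an absolute log2 fold change (LFC) of at least 1. In GRwt/wt, 0 of 7 genes were called against 0.159% of all genes, 1 had an unadjusted p under 0.05 (15.6% of all genes), and DESeq2 called 1, in both cases Hsd11b2. With Dex in each mutant, 0 of the 7 were called by either tool and 0 had an unadjusted p under 0.05. Of all genes, 0% were called in each mutant, and 0.978% (GRD/D), 0.273% (GRL/L) and 0.343% (GRD+L/D+L) had an unadjusted p under 0.05. In vehicle, GRL/L against GRwt/wt called Pgr as higher, beside 4.93% of all genes called higher and 7.78% called in either direction. GRD+L/D+L against GRwt/wt in vehicle called Nr3c1 as higher, beside 3.62% called higher and 8.32% in either direction. With Dex, GRD+L/D+L against GRwt/wt called Hsd11b1 and Hsd11b2 as lower, beside 1.87% called lower and 2.75% in either direction. At an unadjusted p under 0.05 these comparisons held 3 of the 7 genes (37.1% of all genes), 2 of 7 (35.6%) and 4 of 7 (20.9%). They share their GRwt/wt libraries of the same treatment. Where groups are said not to overlap, the share of all genes that did the same was not counted, so this is a description only.

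The remaining comparisons called 0 of the 7 genes by edgeR. In vehicle, GRD/D against GRwt/wt (0.00635% of all genes called) had 0 of the 7 at an unadjusted p under 0.05 (12.4% of all genes) and 0 by DESeq2. Between mutants in vehicle, each comparison had 1 of the 7 at an unadjusted p under 0.05 and 0 by DESeq2. Of all genes, 1.08% were called for GRL/L against GRD/D (15.5% at the unadjusted p), 1.02% for GRD+L/D+L against GRD/D (15.5%) and 0.0953% for GRD+L/D+L against GRL/L (9.57%). With Dex, DESeq2 called Hsd11b2 in GRD/D against GRwt/wt, where edgeR called 0.254% of all genes and 1 of the 7 had an unadjusted p under 0.05 (11.1% of all genes). DESeq2 also called Hsd11b2 in GRL/L against GRwt/wt, where edgeR called 2.59% and 2 of the 7 had an unadjusted p under 0.05 (22.7%). In the tests of whether a mutant's Dex response differed from that of GRwt/wt, DESeq2 called 0 and 1 of the 7 had an unadjusted p under 0.05 for every mutant. Of all genes, 0% were called for GRD/D (7.11% at the unadjusted p), 0.0254% for GRL/L (6.29%) and 0.0254% for GRD+L/D+L (5.05%).

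**Figure D2:**
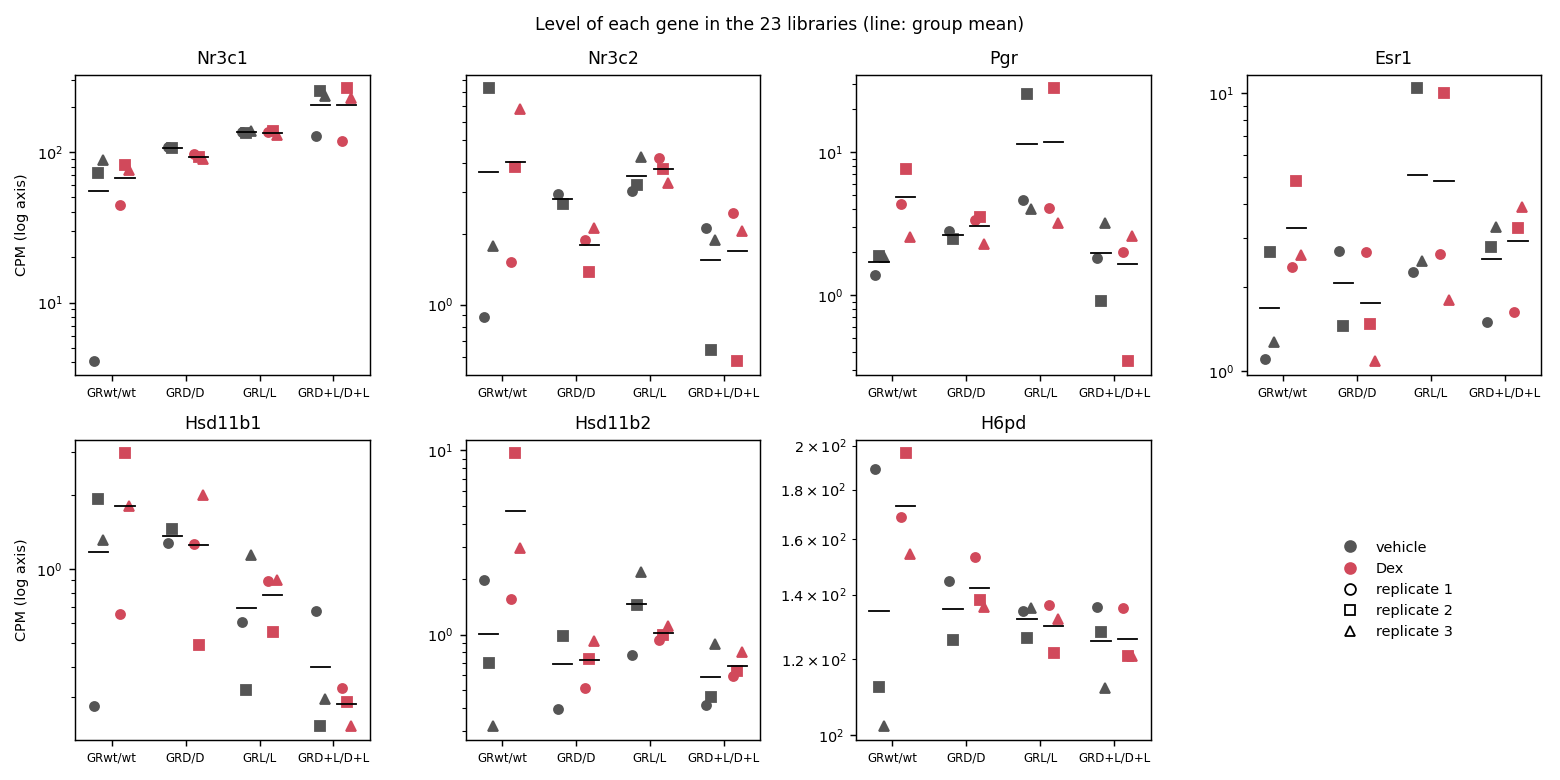
CPM of each gene on a log axis in every library, by genotype, with vehicle in grey, Dex in red, a different symbol for each replicate number and a line at the group mean. Replicate 2 of GRL/L stands above all other libraries for Pgr (25.7 and 28.1 CPM) and Esr1 (10.4 and 10.0 CPM) under both treatments.

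Nr3c1 (ENSMUSG00000024431, chromosome 18, 39410545 to 39519421, minus strand, GRCm38) was the receptor gene with the highest level per length and showed no called response to Dex. With vehicle, GRwt/wt libraries held 4.08, 73.0 and 88.0 CPM, and with Dex 44.5, 81.3 and 76.3 CPM. Both treatments overlapped, and the LFC was 0.29 (SE 0.593, adjusted p 0.833), which turned to -0.25 without GRwt/wt vehicle replicate 1 and to -0.033 among male libraries. Vehicle libraries of GRD/D held 107 and 106 CPM and the Dex libraries 96.3, 92.8 and 90.2 CPM. Every GRD/D Dex library thus lay below both vehicle libraries, and the LFC of -0.19 (SE 0.658, adjusted p 1) was not called, with an SE that pools the spread within all 8 groups. Receptor mRNA is known to fall in many cells that are exposed to glucocorticoid, but no fall was called here in any genotype. GRL/L held 136, 133 and 138 CPM with vehicle and 136, 138 and 130 CPM with Dex.

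In GRD+L/D+L, Nr3c1 amounted to 128, 252 and 234 CPM with vehicle and 118, 265 and 228 CPM with Dex. Replicate 1 thus lay slightly below the GRL/L libraries under both treatments, and replicates 2 and 3 lay above every library of the other genotypes. The log2 range between the replicate numbers was 1.07, against at most 0.115 between vehicle and Dex libraries of the same number. Replicate 1 also differed in cell markers, with 4 cartilage markers summing to 239 and 290 CPM against 10.4 to 16.5 CPM in the other GRD+L/D+L libraries. The cartilage collagen gene Col2a1 contributed 184 and 230 CPM of it, and Matn1 was at 0 and 0.0544 CPM. Fibroblast markers summed to 32830 and 36440 CPM in replicate 1 against 45530 to 57360 CPM in replicates 2 and 3. Endothelial markers summed to 3.37 and 3.86 CPM in replicate 1, and to 16.5 to 20.8 CPM in replicates 2 and 3, above every other library. The part of these cells in the Nr3c1 level was not tested.

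By group mean, Nr3c1 was ordered from GRwt/wt vehicle (55.0 ± 44.8 CPM, SD, n = 3) and Dex (67.4 ± 19.9), over GRD/D Dex (93.1 ± 3.08) and vehicle (106 ± 1.36, n = 2), to GRL/L Dex (134 ± 3.59) and vehicle (135 ± 2.44), and GRD+L/D+L Dex (204 ± 76.2) and vehicle (205 ± 66.9). Between neighbouring genotypes in vehicle, no difference was called, with an LFC of 0.95 (SE 0.653, adjusted p 0.52) for GRD/D against GRwt/wt, 0.35 (adjusted p 0.867) for GRL/L against GRD/D and 0.60 (adjusted p 0.899) for GRD+L/D+L against GRL/L. The GRL/L libraries all lay above those of GRD/D. Among 12 alternatives for that pair, the lowest adjusted p was 0.00071, but the LFC was at most 0.38 and none gave a call. GRD+L/D+L against GRD/D gave 0.94 (adjusted p 0.551). Under both treatments, every library of each mutant lay above every GRwt/wt library. How many of all genes separated likewise was not counted. None of the LFCs with Dex was called, where GRD/D gave 0.47 (SE 0.593) at an adjusted p of 0.915, GRL/L gave 1.00 (SE 0.597) at 0.332, and GRD+L/D+L gave 1.60 (SE 0.606) at 0.137. In vehicle, GRL/L against GRwt/wt gave 1.30 (SE 0.601, adjusted p 0.126), which was called only without GRwt/wt vehicle replicate 3 (1.83, adjusted p 0.0495), and GRD+L/D+L exceeded GRwt/wt by an LFC of 1.90 (SE 0.611, adjusted p 0.037), which was the called difference. It was not called without GRD+L/D+L vehicle replicate 2 (1.72, adjusted p 0.104) or replicate 3 (1.79, adjusted p 0.0902), or when only the genotypes compared were fitted (adjusted p 0.206). Leaving out the GRwt/wt vehicle library that stood apart, replicate 1 at 4.08 CPM, lowered the LFC to 1.36, and it was still called (adjusted p 0.00575). Without the same library, GRD/D gave 0.41 and GRL/L 0.75 against GRwt/wt. In vehicle, neural and glial markers summed to 31.7, 10.8 and 17.3 CPM in GRD+L/D+L and to 61.0, 39.7 and 101 CPM in GRwt/wt, without overlap. The part of such cells in the Nr3c1 difference was not tested.

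The Nr3c1 level moved with library composition. Its longest annotated transcript has 6436 bases and a GC content of 42.2%, lower than that of most tested genes. The GRwt/wt library with 4.08 CPM had the strongest relation between gene deviations and GC content (rho 0.727), the GRwt/wt library with 44.5 CPM the next (rho 0.366), and all other libraries lay between -0.228 and 0.144. Over the 23 libraries, which share genotypes and cultures, the Spearman correlation of Nr3c1 CPM with this rho was -0.691. With a correction of every library for GC content and transcript length, GRD+L/D+L exceeded GRwt/wt by 1.51 in vehicle (adjusted p 0.00978) and by 1.35 with Dex (adjusted p 0.0248), and both were called. The uncalled vehicle differences became 0.68 for GRD/D and 0.75 for GRL/L against GRwt/wt, and 0.077 for GRL/L against GRD/D. Length dependence separated GRL/L and GRD+L/D+L from GRwt/wt and GRD/D without overlap, so for differences between these pairs of genotypes, genotype and library composition cannot be told apart. Between GRwt/wt (rho -0.534 to -0.199) and GRD/D (rho -0.404 to -0.231) it overlapped.

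**Figure D3:**
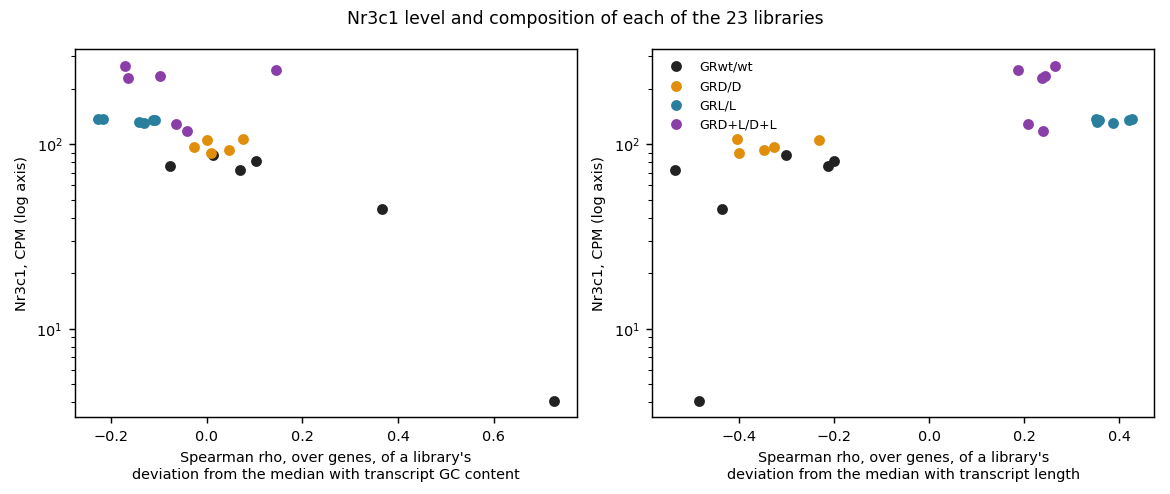
Nr3c1 level (CPM, log axis) of each library against the Spearman correlation, over genes, of the library's deviation from the gene median with transcript GC content (left) and length (right), coloured by genotype. The library at 4.08 CPM lies farthest right on the GC axis (0.727), and on the length axis GRwt/wt and GRD/D lie below 0 and the other genotypes above it.

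Nr3c2 (ENSMUSG00000031618, chromosome 8, 76899442 to 77245012, plus strand), the MR gene, was detected at 0.575 to 8.32 CPM, and none of its differences was called. In GRwt/wt it varied most, with 0.883, 8.32 and 1.77 CPM in vehicle and 1.52, 3.84 and 6.80 CPM with Dex (LFC 0.15, SE 0.667, adjusted p 0.931). The sign of that LFC changed when GRwt/wt vehicle replicate 1 was left out (-0.30). GRD/D held 2.96 and 2.69 CPM in vehicle and 1.89, 1.38 and 2.12 CPM with Dex. All Dex libraries of GRD/D lay below both vehicle libraries, as for Nr3c1, and the LFC of -0.65 (SE 0.751, adjusted p 1) was not called. GRL/L libraries were close to each other, at 3.05, 3.23 and 4.24 CPM in vehicle and 4.22, 3.76 and 3.30 CPM with Dex.

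GRD+L/D+L held the lowest MR transcript levels in a single replicate number, with 2.12, 0.640 and 1.88 CPM in vehicle and 2.45, 0.575 and 2.06 CPM with Dex. Replicate 2 was the lowest under both treatments. Against GRwt/wt, the LFC of GRD+L/D+L was -1.24 (SE 0.688, adjusted p 0.203) in vehicle and -1.25 (SE 0.687, adjusted p 0.312) with Dex, and the libraries overlapped in both. The vehicle value turned to 0.20 in the fit lacking replicate 2 of GRwt/wt vehicle, which held 8.32 CPM. Since the exons of Nr3c2 share 247 bases with Gm10649 on the other strand, and strandedness is not given in the sources used here, some of these counts may belong to that gene. Per length, Nr3c1 exceeded Nr3c2 in all 23 libraries, by 3.9-fold in GRwt/wt vehicle replicate 1 to 388-fold in GRD+L/D+L Dex replicate 2, with a median of 34.6.

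Pgr (ENSMUSG00000031870, chromosome 9, 8899833 to 8968611, plus strand), the progesterone receptor gene and a known oestrogen target in reproductive tissue, was called higher in GRL/L than in GRwt/wt in vehicle. GRwt/wt vehicle libraries held 1.38, 1.88 and 1.86 CPM, and GRL/L vehicle libraries 4.61, 25.7 and 4.03 CPM. All GRL/L libraries lay above all GRwt/wt libraries, and the LFC was 2.74 (SE 0.875, adjusted p 0.0315). The size of the Pgr difference rested largely on the female GRL/L replicate 2. Without it, the LFC was 1.34 (adjusted p 0.275), and among male libraries it was 1.21 (adjusted p 0.36). The call was also lost without GRwt/wt vehicle replicate 1 (2.60, adjusted p 0.0757) or replicate 2 (2.79, adjusted p 0.0619). The same held in the fit of only the genotypes compared (adjusted p 0.0875) and after correction for GC content and length (1.75, adjusted p 0.169). With the replicate number as a block, the LFC was 2.46 (adjusted p 0.0527). A number stands for different mice in each genotype, so that block is no check of a genotype difference.

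With Dex, the same GRL/L replicate again held most Pgr, at 28.1 CPM against 4.08 and 3.19 CPM in replicates 1 and 3. GRL/L and GRwt/wt overlapped with Dex (LFC 1.27, SE 0.823, adjusted p 0.368), and without that library the LFC turned to -0.42. In GRL/L, the log2 range of Pgr between replicate numbers was 2.87, and vehicle and Dex libraries of the same number differed by at most 0.329. In GRwt/wt, the Dex libraries held 4.35, 7.64 and 2.56 CPM, each above every vehicle library. That LFC of 1.51 (SE 0.849, 95% interval -0.28 to 3.29, adjusted p 0.415) was not called. GRD/D held 2.81 and 2.48 CPM in vehicle and 3.37, 3.55 and 2.28 CPM with Dex. Cells with both changes, GRD+L/D+L, held 1.81, 0.915 and 3.18 CPM in vehicle and 2.01, 0.345 and 2.58 CPM with Dex. In vehicle, all GRL/L libraries lay above all GRD/D libraries (LFC 2.11, adjusted p 0.313) and above all GRD+L/D+L libraries (LFC of GRD+L/D+L against GRL/L -2.54, adjusted p 0.331), without a call. Without GRL/L vehicle replicate 2 these were 0.71 and -1.14.

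Esr1 (ENSMUSG00000019768, chromosome 10, 4611593 to 5005614, plus strand), the oestrogen receptor gene, was highest in the same GRL/L replicate as Pgr. GRL/L held 2.28, 10.4 and 2.48 CPM in vehicle and 2.63, 10.0 and 1.81 CPM with Dex. No other library exceeded 4.83 CPM. The log2 range between GRL/L replicate numbers was 2.21, against at most 0.437 between treatments of a number. GRwt/wt held 1.10, 2.69 and 1.27 CPM in vehicle and 2.38, 4.83 and 2.62 CPM with Dex (LFC 0.96, SE 0.679, adjusted p 0.529). That LFC was 0.57 when GRwt/wt Dex replicate 2 was left out, and 1.45 when vehicle replicate 2 was. GRD/D held 2.71 and 1.45 CPM in vehicle and 2.69, 1.48 and 1.09 CPM with Dex. GRD+L/D+L held 1.50, 2.79 and 3.30 CPM in vehicle and 1.63, 3.28 and 3.90 CPM with Dex. In vehicle, GRL/L against GRwt/wt overlapped with an LFC of 1.58 (SE 0.684, adjusted p 0.102), which fell to 0.50 (adjusted p 0.624) without GRL/L vehicle replicate 2. Replicate 2 of GRL/L also carried 1514 and 1478 CPM of Xist, the X-inactivation transcript of female cells, against 18.9 to 346 CPM in the other female libraries. Its adipocyte marker sums (151 and 153 CPM) were the highest in GRL/L, where the other libraries held 67.1 to 131 CPM. Its macrophage sums (664 and 696 CPM) were close to those of replicate 1 (665 and 695 CPM) and above those of replicate 3 (294 and 280 CPM), and its epithelial sums did not exceed 0.484 CPM. The part of these cells in the Pgr and Esr1 levels was not tested. A part of sex in the Pgr and Esr1 levels was not tested within GRL/L, which had no other female library.

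Hsd11b1 (ENSMUSG00000016194, chromosome 1, 193221634 to 193264075, minus strand), the gene of the glucocorticoid-activating reductase, was low everywhere, and its lowest group means were those of GRD+L/D+L. GRwt/wt held 0.276, 1.93 and 1.31 CPM in vehicle and 0.657, 2.95 and 1.81 CPM with Dex. GRD+L/D+L held 0.674, 0.229 and 0.294 CPM in vehicle and 0.326, 0.287 and 0.229 CPM with Dex, which corresponds to 4 to 13 counts per library. With Dex, all GRD+L/D+L libraries lay below all GRwt/wt libraries, and the LFC was -2.66 (SE 0.719, 95% interval -4.17 to -1.14, adjusted p 0.042). The call was lost without GRwt/wt Dex replicate 2 (-2.10, adjusted p 0.126) or replicate 3 (-2.66, adjusted p 0.11) and without any of the GRD+L/D+L Dex replicates, with an LFC of -2.77 to -2.53 and adjusted p of 0.0727 to 0.148. It was also lost with the replicate number as a block (-2.63, adjusted p 0.0562), without an expression filter (adjusted p 0.0708) and in the fit of only the genotypes compared (adjusted p 0.238).

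In vehicle, Hsd11b1 of GRD+L/D+L and GRwt/wt overlapped (LFC -1.55, SE 0.689, adjusted p 0.118), with 0.276 CPM in GRwt/wt replicate 1, the library that stood apart. Without that library, the LFC was -1.99 (adjusted p 0.0349). Between GRD/D (1.28 and 1.45 CPM in vehicle) and GRD+L/D+L the libraries did not overlap, but the LFC of -1.76 (SE 0.743, adjusted p 0.253) was not called. GRD/D held 1.26, 0.492 and 2.01 CPM with Dex. GRL/L held 0.611, 0.323 and 1.14 CPM in vehicle and 0.891, 0.553 and 0.904 CPM with Dex, where its LFC against GRwt/wt was -1.20 (SE 0.655, adjusted p 0.285) and -0.64 without GRwt/wt Dex replicate 2. Dex itself gave an LFC of 0.62 (SE 0.641, adjusted p 0.668) in GRwt/wt, which ranged from 0.058 without GRwt/wt Dex replicate 2 to 1.16 without GRwt/wt vehicle replicate 2. In the Dex libraries, adipocyte markers summed to 47.5, 84.3 and 98.1 CPM in GRD+L/D+L and to 34.2, 206 and 78.6 CPM in GRwt/wt. These sums overlapped, and their highest, like the highest Hsd11b1 level, was in GRwt/wt Dex replicate 2. Of the 8 marker lists, that for neural and glial cells alone did not overlap between these groups, with sums of 32.2, 8.45 and 17.4 CPM in GRD+L/D+L and 42.0, 61.2 and 39.1 CPM in GRwt/wt, the highest again in replicate 2. The part of these cells in the Hsd11b1 level, and in the Hsd11b2 level of the same libraries, was not tested.

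Hsd11b2 (ENSMUSG00000031891, chromosome 8, 105518755 to 105523988, plus strand), the gene of the inactivating dehydrogenase, had the largest LFC of the 7 genes with Dex in GRwt/wt. The vehicle libraries held 1.99, 0.698 and 0.317 CPM and the Dex libraries 1.57, 9.60 and 2.93 CPM. The groups overlapped through replicate 1, and the LFC was 2.24 (SE 0.651, 95% interval 0.87 to 3.61, adjusted p 0.153). DESeq2 called it (2.30, adjusted p 0.0217). It was also called without GRwt/wt vehicle replicate 1 (3.22, adjusted p 0.0438), and without GRwt/wt Dex replicate 2, which held 205 counts, it was 1.17. That replicate was also the highest of the 3 GRwt/wt Dex libraries for H6pd, Hsd11b1, Pgr, Esr1 and Nr3c1.

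In the mutants, Hsd11b2 stayed low with Dex. GRD/D held 0.394 and 0.983 CPM in vehicle and 0.515, 0.739 and 0.923 CPM with Dex. GRL/L held 0.777, 1.45 and 2.17 CPM in vehicle and 0.938, 0.996 and 1.12 CPM with Dex. GRD+L/D+L held 0.414, 0.457 and 0.883 CPM in vehicle and 0.598, 0.632 and 0.803 CPM with Dex. With Dex, all 3 mutants lay below every GRwt/wt library, and edgeR called the difference for GRD+L/D+L alone (LFC -2.79, SE 0.672, adjusted p 0.0272). GRD/D gave -2.69 (SE 0.666) at an adjusted p of 0.0987, and GRL/L gave -2.21 (SE 0.649) at 0.0559. Without GRwt/wt Dex replicate 2 GRD/D gave -1.62 and GRL/L -1.14, and GRD+L/D+L gave -1.72 at an adjusted p of 0.121. That call was also lost when any GRD+L/D+L Dex replicate was left out (-2.92 to -2.70, adjusted p 0.0591 to 0.119) and when only the genotypes compared were fitted (adjusted p 0.228). The difference between the Dex response of a mutant and that of GRwt/wt was -2.16 for GRD/D (SE 0.978) at an adjusted p of 0.692. It was -2.77 for GRL/L (SE 0.909) at 0.785 and -2.02 for GRD+L/D+L (SE 0.937) at 0.969. Without GRwt/wt Dex replicate 2, these differences were -1.09, -1.70 and -0.95, in the same order. A response confined to GRwt/wt was therefore not shown.

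H6pd (ENSMUSG00000028980, chromosome 4, 149979475 to 150009023, minus strand), the NADPH-supplying partner of the reductase, was nearly level over all mutants. GRwt/wt held 189, 112 and 102 CPM in vehicle and 168, 196 and 154 CPM with Dex (LFC 0.36, SE 0.173, adjusted p 0.321). The vehicle library at 189 CPM was the one that stood apart, and without it the LFC was 0.69 at an adjusted p of 0.00716, still under the size that a call required. GRD/D held 145 and 126 CPM in vehicle and 153, 138 and 136 CPM with Dex. GRL/L held 134, 126 and 136 CPM in vehicle and 136, 122 and 132 CPM with Dex. Libraries of GRD+L/D+L held 136, 128 and 112 CPM in vehicle and 136, 121 and 121 CPM with Dex. With Dex, every library of each mutant lay below every GRwt/wt library, by an LFC of -0.28 for GRD/D (adjusted p 0.638), -0.41 for GRL/L (adjusted p 0.167) and -0.46 for GRD+L/D+L (adjusted p 0.134). These LFCs are under the size that a call required, and the closest libraries were GRD/D at 153 CPM and GRwt/wt at 154 CPM. The GC content of its longest transcript is 57.2%, above that of most tested genes. Over the libraries, H6pd CPM had a Spearman correlation of 0.454 with the library's GC dependence, opposite in sign to Nr3c1. The sign of this correlation did not follow GC content in every gene. The correlation was -0.146 for Hsd11b2, at 57.8% GC, and 0.206 for Hsd11b1, at 43.3%. For Nr3c2, Pgr and Esr1, at 45.4% to 47.5% GC, it was negative (-0.354 to -0.295).

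The balance between the activating and inactivating enzyme transcripts differed between libraries. Per exonic length, Hsd11b1 was below Hsd11b2 in 19 of 23 libraries, with a median ratio of 0.267 and a range of 0.0601 to 1.79. That length is 4251 bases for Hsd11b1, whose longest transcript has 1978, and 1840 bases for Hsd11b2. With the longest transcript in its place, every ratio would be higher and more libraries would exceed 1. The 4 libraries with more Hsd11b1 per exonic length were GRwt/wt vehicle replicates 2 (1.20) and 3 (1.79), GRD/D vehicle replicate 1 (1.41) and GRD/D Dex replicate 1 (1.06). By exonic length, all libraries of GRL/L and of GRD+L/D+L were below 1. The highest was 0.703 in GRD+L/D+L vehicle replicate 1, on 13 Hsd11b1 and 8 Hsd11b2 counts, which the longest transcripts would put above 1. H6pd exceeded Hsd11b1 by 47.2-fold to 556-fold per exonic length, and the folds would be smaller by the longest transcripts. Ratios of transcripts with so few counts carry a wide counting error and say nothing of enzyme activity.

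**Figure D4:**
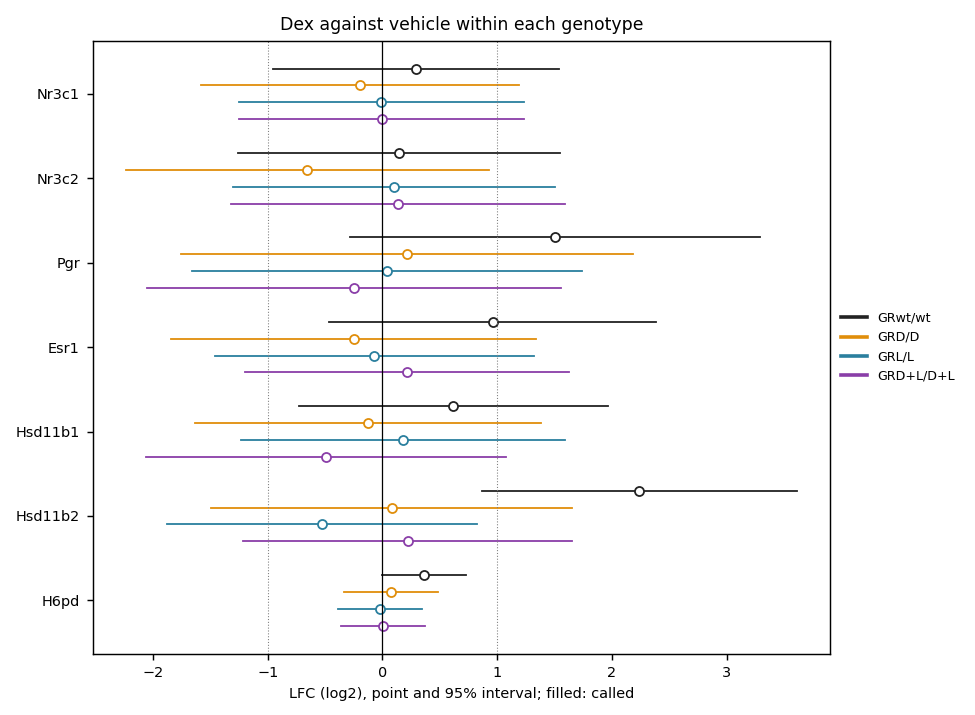
LFC of Dex against vehicle for each gene and genotype, as points with 95% intervals on a log2 axis, with dotted lines at -1 and 1. All points are open because no gene was called, and the Hsd11b2 point of GRwt/wt (2.24) lies farthest from 0.

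**Figure D5:**
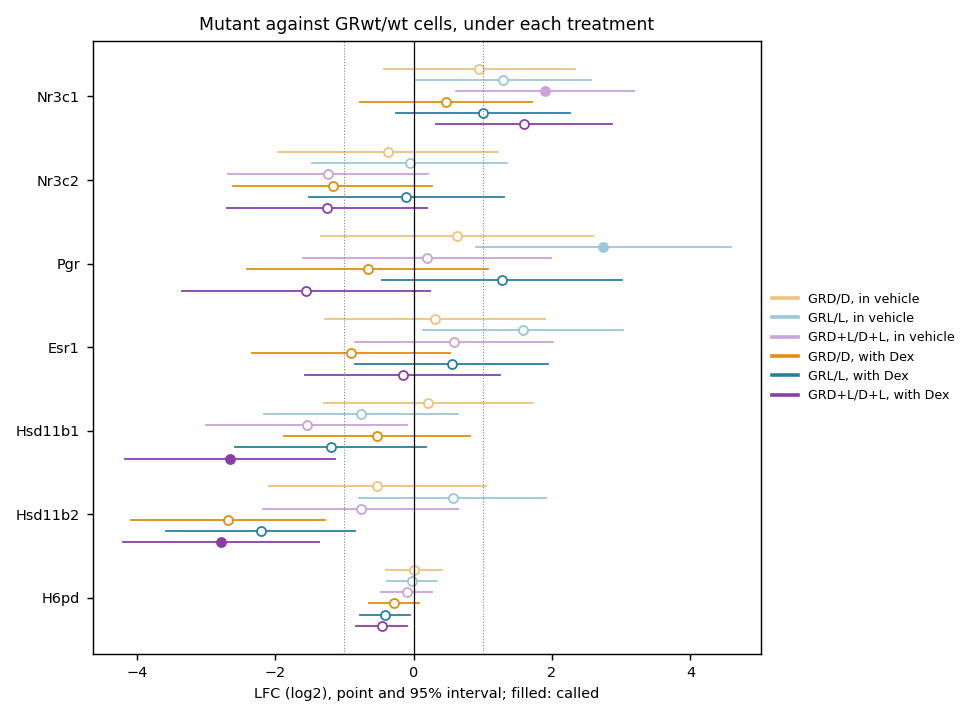
LFC of each mutant against GRwt/wt in vehicle (pale) and with Dex (dark), as points with 95% intervals on a log2 axis, with filled points where the difference was called. Filled are Nr3c1 of GRD+L/D+L (1.90) and Pgr of GRL/L (2.74) in vehicle, and Hsd11b1 (-2.66) and Hsd11b2 (-2.79) of GRD+L/D+L with Dex.

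The genes whose levels followed each of the 7 most closely were found by Spearman correlation of log2(CPM + 1) over the 23 libraries, which share genotype, culture and composition. Nr3c1 followed Golga4 (0.975), Fam13b (0.966) and Ranbp2 (0.965). Nr3c2 followed Lepr, the leptin receptor gene (0.901), Lrrtm3 (0.897) and Xlr3a (0.882). Pgr followed St3gal6 (0.893), Clec1a (0.867) and Frem1 (0.86), and Hsd11b1 followed Reep1 (0.928), Gm10561 (0.912) and Rorb (0.885). The closest genes to Esr1 (Dusp19, 0.792), Hsd11b2 (5730414N17Rik, 0.766) and H6pd (Selenon, 0.803) were less alike. Among the 7 themselves, the strongest Spearman correlations of CPM were 0.574 between Nr3c2 and Hsd11b1, -0.565 between Nr3c1 and Hsd11b1, and -0.54 between Nr3c1 and H6pd. By Pearson's r, the strongest were 0.756 between Pgr and Esr1 (Spearman 0.397), both highest by far in GRL/L replicate 2, and 0.667 between Hsd11b2 and H6pd (Spearman 0.356).

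Of 4 further oestrogen and oestrogen-related receptor genes, 3 were tested, and 0 were called by Dex or between genotypes. Esrra, the gene of an orphan receptor that acts on mitochondrial metabolism, was the abundant one, at 5.08 to 9.18 CPM per kb, and Esr2 and Esrrg did not exceed 0.42 and 0.15 CPM per kb. Esrrg had the largest LFC with Dex in GRwt/wt (1.12, SE 0.923, adjusted p 0.592), on 0, 12 and 5 counts in vehicle and 6, 16 and 14 with Dex. Esrra held 40.3, 30.7 and 23.2 CPM in GRwt/wt vehicle and 30.5, 26.5 and 24.8 CPM with Dex, and the treatments overlapped (LFC -0.20, SE 0.167, adjusted p 0.595). Without GRwt/wt vehicle replicate 1, the highest of them, the Esrra LFC was 0.021 (adjusted p 0.969).

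Of 11 genes for corticosteroid synthesis, Fdx1 and Fdxr, which supply electrons to mitochondrial cytochromes P450 in many tissues, were expressed at medians of 13.2 and 11.6 CPM. Star, for cholesterol import into mitochondria, had a median of 1.08 CPM and reached 8.79 CPM, and the medians of the other 8 were at most 0.503 CPM. Of the 11, 6 were tested, Cyp11b2, the aldosterone synthase gene, had 0 counts in all libraries, and Dex called 0 in each genotype. The largest LFCs with Dex in GRwt/wt were -0.92 for Cyp11b1 (adjusted p 0.738, -1.40 to -0.325 leaving out libraries) and -0.68 for Hsd3b7 (adjusted p 0.635, -1.04 to 0.11), whose enzyme is known for bile acid synthesis. Hsd3b6 was called lower in GRL/L than in GRwt/wt in vehicle (adjusted p 0.0482), beside 2.84% of all genes called lower, on 2, 0 and 1 counts against 36, 60 and 0 counts. The fitted LFC of -4.84 depends on the prior count at such counts. Of 13 alternatives, 3 kept the call (DESeq2, the replicate block and leaving out GRwt/wt vehicle replicate 3), and over all 13 the adjusted p ranged from 0.0112 to 0.245. Hsd3b6 was not called in GRL/L against GRwt/wt with Dex, where 1 of 13 alternatives called it (adjusted p 0.0165). The same held for GRD+L/D+L against GRwt/wt in vehicle, with 1 of 13 (adjusted p 0.0479). Because Hsd3b6 has near-identical copies, its counts are uncertain.

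Among 14 genes for inactivation, carriage and export of corticosteroids, 9 were tested, and edgeR over all libraries called 0 by Dex or between genotypes. The largest LFCs with Dex in GRwt/wt belonged to Akr1c18, a steroid 20-alpha-reductase, and Akr1c14, a 3-alpha-reductase. Akr1c18 had 1, 3 and 1 counts in vehicle and 12, 17 and 7 with Dex (LFC 2.76, SE 0.823, adjusted p 0.164). Akr1c14 held 0.828, 19.6 and 3.53 CPM in vehicle and 6.17, 44.2 and 19.7 CPM with Dex (LFC 1.55, SE 0.734, adjusted p 0.32). It was called without GRwt/wt vehicle replicate 2 (3.40, adjusted p 0.0208), while leaving out GRwt/wt Dex replicate 2 lowered the LFC to 0.69. The replicate block also called it (2.07, adjusted p 0.0106), though numbers did not pair all GRwt/wt libraries. In vehicle, 1 alternative each called Akr1c14 in GRL/L (adjusted p 0.0027) and GRD+L/D+L (adjusted p 0.00736) against GRwt/wt and in GRL/L against GRD/D (adjusted p 0.0191). The 8 genes for glucose-6-phosphate transport and NADPH supply were all expressed, at medians between 9.45 CPM (Slc37a4, the transporter that feeds H6pd) and 226 CPM (Idh1), and 0 were called in any comparison. With Dex in GRwt/wt, the median LFC of these 8 was -0.31 against -0.01 for all genes, with Pgls at -0.44 (adjusted p 0.278) and Slc37a4 at -0.41 (adjusted p 0.216). Without GRwt/wt vehicle replicate 1 these were -0.11 (Pgls) and -0.23 (Slc37a4). In GRL/L against GRwt/wt in vehicle, 5 of the 8 had an adjusted p under 0.05 (23% of all genes) without reaching the LFC that a call required, and the median LFC was -0.65 against -0.05 for all genes. For GRD+L/D+L this held for 3 of the 8 (20.4% of all genes, median LFC -0.50) and for GRD/D for 0 of the 8 (0.0127%, median LFC -0.21). Leaving out libraries, the LFC of Pgls in GRL/L ranged from -0.80 to -0.32.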

How the data were processed

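RNA-seq counts per gene of 23 MEF libraries were used. The deposited raw counts were made by the authors from TruSeq libraries of total RNA sequenced on a NovaSeq instrument, mapped to mm10 with HISAT2 2.1.0, restricted to unique reads and counted with featureCounts 2.0.0 (versions per the submitters' processing notes). The annotation release and strandedness are not given in the sources used here, so overlapping genes are uncertain. Of 55487 identifiers, 55227 occur in GENCODE M21 (GRCm38), which gave symbols, positions and exonic lengths.

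All libraries were fitted in edgeR 4.0.16 (R 4.3.3) with 1 mean per group, filterByExpr, TMM scaling, a prior count of 0.125 and the quasi-likelihood test, followed by Benjamini-Hochberg adjustment over 15748 genes. Calls required an adjusted p up to 0.05 together with an LFC of 1 or more in size. The method was tested on simulated data with the same spread for every gene and changes in well-counted genes only, so that test does not cover genes with few counts. Libraries of a group came from different mice per the study. The lowest mean chi-square between libraries of a group was 9.11, so none was a copy. The 7 genes and all lists were chosen with earlier results of these data known, and 1 list gene is not reported here. List genes were named where called, and otherwise the 2 with the largest absolute LFC with Dex in GRwt/wt. Intervals use the test's degrees of freedom. RLE scaling, no expression filter, adjusted p alone, fewer genotypes, DESeq2 1.42.0, a replicate block and leaving out each library were alternatives. Male libraries only and a correction for GC content and length, fitted by local regression on 11876 genes, were added after seeing the data.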

Additional observations from a re-analysis of the deposited data

How the results depend on the processing

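Counts of the 7 genes called rested on few genes and moved easily. Of the 47 LFCs reported, alternatives gave 615 values, of which 11 changed sign, 33 lost a call and 12 gained one. Leaving out 1 library moved 2 of the 5 called LFCs (Pgr in GRL/L in vehicle and Hsd11b2 in GRD+L/D+L with Dex) and 30 of the 42 others by over 1.5 times. For Dex in GRwt/wt (0 called), DESeq2 gave 1 and leaving out libraries gave 0 to 1. For GRL/L against GRwt/wt in vehicle (1 called), fits with only the genotypes compared, with the replicate block, with male libraries only and with the GC content and length correction gave 0, and leaving out libraries gave 0 to 2. For GRD+L/D+L against GRwt/wt in vehicle (1 called), fitting only the genotypes compared gave 0, male libraries only gave 2, and leaving out libraries gave 0 to 2. With Dex, DESeq2 gave 1 in place of 0 for GRD/D and for GRL/L against GRwt/wt, where leaving out libraries gave 0 to 1 for GRL/L. For GRD+L/D+L against GRwt/wt with Dex (2 called), no expression filter and the replicate block gave 1, only the genotypes compared gave 0, male libraries only and the GC content and length correction each gave 3, and leaving out libraries gave 0 to 2. Where this left 1 GRD/D vehicle library, it was assumed to vary like the other groups. The cause of these shifts was not tested.

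Over all 112 LFCs of the 7 genes, 112 of 1546 alternative values changed sign, for example for Nr3c2 of GRD/D against GRwt/wt in vehicle (-0.92 to 1.06) and Esr1 with Dex in GRD/D (-0.69 to 0.26). Among the LFCs reported, the sign changed for Nr3c1 with Dex in GRwt/wt (-0.033 among male libraries, -0.25 to 0.83 leaving out libraries), Nr3c2 with Dex in GRwt/wt (-0.15 with the GC content and length correction, -0.45 to 1.59 leaving out libraries), Nr3c2 of GRD+L/D+L against GRwt/wt in vehicle (-1.68 to 0.20), Pgr of GRL/L against GRwt/wt with Dex (-0.49 among male libraries, -0.42 to 1.76 leaving out libraries), Esrra with Dex in GRwt/wt (-0.34 to 0.021) and Hsd3b7 with Dex in GRwt/wt (-1.04 to 0.11). RLE scaling changed no count by over 1.5 times.

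The replicate number was not used as a block. Deviations of vehicle and Dex libraries with the same number correlated at 0.548, 0.0266 and -0.0265 in GRwt/wt, 0.283 and -0.199 in GRD/D, 0.322 to 0.644 in GRL/L and 0.652 to 0.887 in GRD+L/D+L, so numbers did not pair libraries in every genotype. GRwt/wt vehicle replicates 2 and 3 correlated best with Dex replicates 3 (0.544) and 2 (0.375). GRD/D vehicle replicate 2 correlated best with Dex replicate 3 (0.452). Those GRD/D libraries were male and GRD/D Dex replicate 2 was female, so cultures may be paired under other numbers. The main tests took no account of such pairing. Every GRL/L and GRD+L/D+L library correlated best with its own number. With the replicate block, Pgr of GRL/L in vehicle gave 2.46 (adjusted p 0.0527) and Hsd11b1 of GRD+L/D+L with Dex -2.63 (adjusted p 0.0562). A number stands for different mice in each genotype, so the block does not check differences between genotypes.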
